A study of Mus musculus with 15 samples.

Results

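The Ms4a genes are described here in microglia of mice in which the TGFβ receptor gene Tgfbr2 was deleted in adult life. The 9 members (Ms4a7, Ms4a4a, Ms4a14, Ms4a6b, Ms4a6c, Ms4a6d, Ms4a4b, Ms4a4c and Ms4a8a) were found by gene symbol among 30971 genes on the array, and each was read by a single transcript cluster, a set of probes summarised to 1 value. They were chosen for their measured values in Cre/+ TAM microglia against the controls, so their signals in those comparisons are a description, and no test is drawn from them. RNA of microglia was hybridised to 15 Affymetrix Mouse Gene 2.0 ST arrays, 1 per mouse, and the deposited values are log2 signals normalised by RMA, on which 1 unit is a doubling of the signal.

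All mice were of the C57BL/6 strain by the labels and males by the study's methods, and carried floxed alleles of Tgfbr2 (Tgfbr2 fl/fl) and the R26-yfp reporter. The 6 Cre/+ TAM mice carried Cx3cr1CreERT2, a tamoxifen-inducible Cre inserted in the Cx3cr1 gene and active in microglia and other macrophages. They received 8 mg tamoxifen at an age of 6 to 8 weeks, with injections at 2 times 48 h apart. Cre then removes exons 2 and 3 of Tgfbr2, which encode the part that binds the ligand. The 6 wt TAM mice had no Cre allele and received the same tamoxifen dose. The 3 Cre/+ OIL mice carried the Cre allele and received corn oil. Controls were littermates, but the sources used here do not tell which mice shared a litter. Microglia were isolated 4 weeks later. The labels give a CD11b+/CD45low sort for every group, whereas the methods give YFP+/CD45low for Cre/+ TAM and CD11b+/CD45low for wt TAM. The Cre is also active in macrophages at the borders of the brain, and such cells can carry the CD11b marker. The meninges were taken off before isolation, and the sort was gated on low CD45. Whether such cells were among those sorted was not tested. Mice are numbered here within each group in the order of the animal numbers in their labels. The numbers fall in a lower and a higher range. The lower range holds Cre/+ TAM mice 1 and 2, wt TAM mice 1, 2 and 3 and all Cre/+ OIL mice, and the higher range holds Cre/+ TAM mice 3 to 6 and wt TAM mice 4 to 6. The titles of 3 arrays (wt TAM mouse 1 and Cre/+ OIL mice 1 and 2) carry the word neg, whose meaning the sources used here do not give.

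Ms4a genes encode small membrane proteins that cross the membrane 4 times and sit in immune cells, where several of them travel with other receptors. The best known relatives are Ms4a1, which encodes the B cell antigen CD20, and Ms4a2, the β chain of the high-affinity IgE receptor of mast cells. In human macrophages, MS4A4A associates with the fungal receptor dectin-1, and variation at the MS4A locus is linked to soluble TREM2 and to Alzheimer's disease. In the mouse brain, Ms4a7 is used as a marker of macrophages of the meninges and perivascular spaces (border-associated macrophages) and of brain macrophages derived from bone marrow, and it is low in resident microglia. Ms4a4b is known from T cells, Ms4a6b, Ms4a6c and Ms4a6d from macrophages and lymphocytes, and Ms4a8a from macrophages in alternative activation. In bulk RNA a change in the number of cells of one type and a change in the RNA per cell cannot be told apart.

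The 9 members lie in 1 gene cluster on chromosome 19, between positions 11067471 and 11604849 of the deposited annotation, a stretch of 537 kb. No source used here names the build of these positions, but those of all 27 genes of the cluster overlapped the same genes of RefSeq on GRCm38.p6. RefSeq promoter sequences were listed for 8 of the 9 genes, Ms4a6d being the other. The 250 bases before the start site are shown for Ms4a7, Ms4a4a, Ms4a14, Ms4a6c and Ms4a6b. Ms4a4c had a larger difference to wt TAM than Ms4a6b, but its sequence is not shown. Each sequence is written 5′ to 3′ on the strand of its gene, and capitals mark matches to the motifs described next.
Ms4a7 (chr19:11336147-11336396, - strand): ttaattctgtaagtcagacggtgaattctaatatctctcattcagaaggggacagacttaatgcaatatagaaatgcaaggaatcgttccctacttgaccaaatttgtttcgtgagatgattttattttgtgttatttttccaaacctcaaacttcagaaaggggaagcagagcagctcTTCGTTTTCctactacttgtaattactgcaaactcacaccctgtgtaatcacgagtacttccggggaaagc
Ms4a4a (chr19:11375238-11375487, + strand): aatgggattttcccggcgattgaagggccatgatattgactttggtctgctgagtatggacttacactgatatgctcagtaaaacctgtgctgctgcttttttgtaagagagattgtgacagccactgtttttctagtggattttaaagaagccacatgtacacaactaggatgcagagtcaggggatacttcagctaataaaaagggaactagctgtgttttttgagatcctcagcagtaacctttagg
Ms4a14 (chr19:11314455-11314704, - strand): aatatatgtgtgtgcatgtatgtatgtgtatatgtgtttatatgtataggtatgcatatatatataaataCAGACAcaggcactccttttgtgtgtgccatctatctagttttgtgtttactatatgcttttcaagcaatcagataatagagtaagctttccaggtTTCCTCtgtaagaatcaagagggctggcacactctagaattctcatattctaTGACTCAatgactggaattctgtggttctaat
Ms4a6c (chr19:11469118-11469367, + strand): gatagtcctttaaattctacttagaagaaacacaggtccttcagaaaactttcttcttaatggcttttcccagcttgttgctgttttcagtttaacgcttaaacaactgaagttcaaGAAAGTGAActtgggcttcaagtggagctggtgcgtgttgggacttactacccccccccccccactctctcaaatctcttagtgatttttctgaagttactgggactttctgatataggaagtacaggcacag
Ms4a6b (chr19:11518309-11518558, + strand): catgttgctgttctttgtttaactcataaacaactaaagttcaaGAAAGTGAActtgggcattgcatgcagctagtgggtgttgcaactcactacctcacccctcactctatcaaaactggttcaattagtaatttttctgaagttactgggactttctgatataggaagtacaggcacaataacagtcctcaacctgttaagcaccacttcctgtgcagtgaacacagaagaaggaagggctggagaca

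The motifs searched on both strands were GAGGAA (the core read by PU.1, the master factor of macrophages), GTCTAGAC and CAGACA (read by Smads, the transcription factors of TGFβ receptors), TGANTCA (AP-1), GAAANNGAA (the interferon-stimulated response element) and TTCNNNGAA (STATs). The response element had a match in 3 of the 8 genes, in Ms4a7 71 bases before the start, in Ms4a6c 133 bases before and in Ms4a6b 206 bases before, and in 7.13% of all 32851 mouse promoters. A second start site listed for Ms4a7 held another match, GAAAAGGAA. CAGACA was found in Ms4a14 only (17.1% of all promoters), and GTCTAGAC in none of the 8 (0.167% of all promoters). GAGGAA was found in Ms4a14, Ms4a4c and Ms4a4b (23.3% of all promoters). TGANTCA was found in Ms4a14, in Ms4a8a and at the second start of Ms4a7 (6.75% of all promoters). TTCNNNGAA was found in none (7.02% of all promoters). A match is a stretch of letters and was not tested as a binding site. Ms4a4a, with one of the largest differences, held none of these letters in its window.

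Some of the promoters share identical stretches. Of the 28 pairs, Ms4a6c and Ms4a6b shared an identical run of 48 bases and Ms4a4c and Ms4a4b one of 20 bases, and no other pair shared more than 9.
Ms4a6c and Ms4a6b: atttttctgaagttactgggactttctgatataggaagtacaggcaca
Ms4a4c and Ms4a4b: ttctgcctcttagtcagtgg
The run begins 49 bases before the start of Ms4a6c and 118 bases before that of Ms4a6b. In the other pair it begins 38 bases before the start of Ms4a4c and 41 bases before that of Ms4a4b, and a GAGGAA stands just ahead of it in both genes. The probe sets of all 9 members carry the array maker's class for probes that match a single place. The probe letters were not used here, so sharing of signal between members was not tested.

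Across the 15 arrays, the median signal over all clusters was 4.35 to 4.55 and pairs of arrays correlated at 0.96 to 0.988. The microglia markers (12 genes, among them P2ry12, Tmem119 and Sall1) averaged log2 signals of 9.86 to 10.38 in Cre/+ TAM, 10.03 to 10.45 in wt TAM and 10.15 to 10.45 in Cre/+ OIL, the lowest in Cre/+ TAM mouse 1. Cre/+ TAM mice 1 and 2 stood apart from the other 4 Cre/+ TAM mice in several members, and the differences of the 6 members with the larger ones, the medians and the main lists are given with and without them. The mean over 8 neutrophil markers was at most 3.46 in Cre/+ TAM and stood apart in wt TAM mouse 3 (5.59) and Cre/+ OIL mouse 3 (6.11). Tgfbr2 itself had log2 signals of 7.91 to 8.36 in Cre/+ TAM, 7.91 to 8.26 in wt TAM and 7.94 to 8.49 in Cre/+ OIL, but which of its exons the probes read was not checked, so these do not test the deletion. The files used hold no detection calls, so a low signal does not show that a transcript is absent.

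Ms4a7, Ms4a4a and Ms4a14 had signals above every control array in all 6 Cre/+ TAM mice. They are neighbours on the chromosome, and the study names all 3 from these arrays. The Ms4a7 signal was 9.82 in mouse 1, 8.48 in mouse 2, 6.00 in mouse 3, 5.61 in mouse 4, 5.55 in mouse 5 and 5.73 in mouse 6 in Cre/+ TAM. In the 6 wt TAM mice its lowest, median and highest signals were 3.23, 3.48 and 4.36, and in Cre/+ OIL the signals were 3.68, 4.00 and 3.41. Cre/+ TAM mice 1 and 2 were the highest, the other 4 Cre/+ TAM mice lay close together, and no Cre/+ TAM mouse overlapped with a control. Ms4a7 averaged 6.86 ± 1.83 in Cre/+ TAM (SD, n = 6), 3.59 ± 0.45 in wt TAM (SD, n = 6) and 3.70 ± 0.30 in Cre/+ OIL (SD, n = 3). The log2 difference to wt TAM was 3.27 ± 0.59 (SE), a fold of 9.63 and the highest of all 32471 clusters with a gene symbol. To Cre/+ OIL it was 3.17 ± 0.73 (SE), a fold of 8.98 and the second highest.

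Ms4a4a, the mouse counterpart of the human dectin-1 partner, was likewise highest in Cre/+ TAM mice 1 and 2. Its Cre/+ TAM signals were 9.36 in mouse 1, 7.22 in mouse 2, 5.47 in mouse 3, 3.52 in mouse 4, 5.52 in mouse 5 and 4.53 in mouse 6. In wt TAM the lowest, median and highest were 2.50, 2.97 and 3.23, and in Cre/+ OIL the signals were 2.79, 2.94 and 2.53. Cre/+ TAM mouse 4 lay just above the highest wt TAM mouse, and the groups did not overlap. Ms4a4a averaged 5.94 ± 2.08 in Cre/+ TAM (SD, n = 6), 2.93 ± 0.24 in wt TAM (SD, n = 6) and 2.76 ± 0.21 in Cre/+ OIL (SD, n = 3). The log2 difference was 3.00 ± 0.66 (SE) to wt TAM and 3.18 ± 0.81 (SE) to Cre/+ OIL, ranks 2 and 1 of all clusters.

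Ms4a14, a larger and less studied family member, was high in 2 mice. Its Cre/+ TAM signals were 7.05 in mouse 1, 5.78 in mouse 2, 2.61 in mouse 3, 3.10 in mouse 4, 2.67 in mouse 5 and 3.17 in mouse 6. In wt TAM the lowest, median and highest were 2.13, 2.26 and 2.59, and in Cre/+ OIL the signals were 2.51, 2.45 and 2.39. Cre/+ TAM mice 1 and 2 were far above the rest, mice 3 and 5 were just above the highest control, and mice 4 and 6 lay further above it. The mean was 4.06 ± 1.88 in Cre/+ TAM (SD, n = 6), 2.28 ± 0.16 in wt TAM (SD, n = 6) and 2.45 ± 0.06 in Cre/+ OIL (SD, n = 3). The log2 difference to wt TAM was 1.78 ± 0.59 (SE, rank 17) with all 6 mice and 0.61 without Cre/+ TAM mice 1 and 2.

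**Figure D1:**
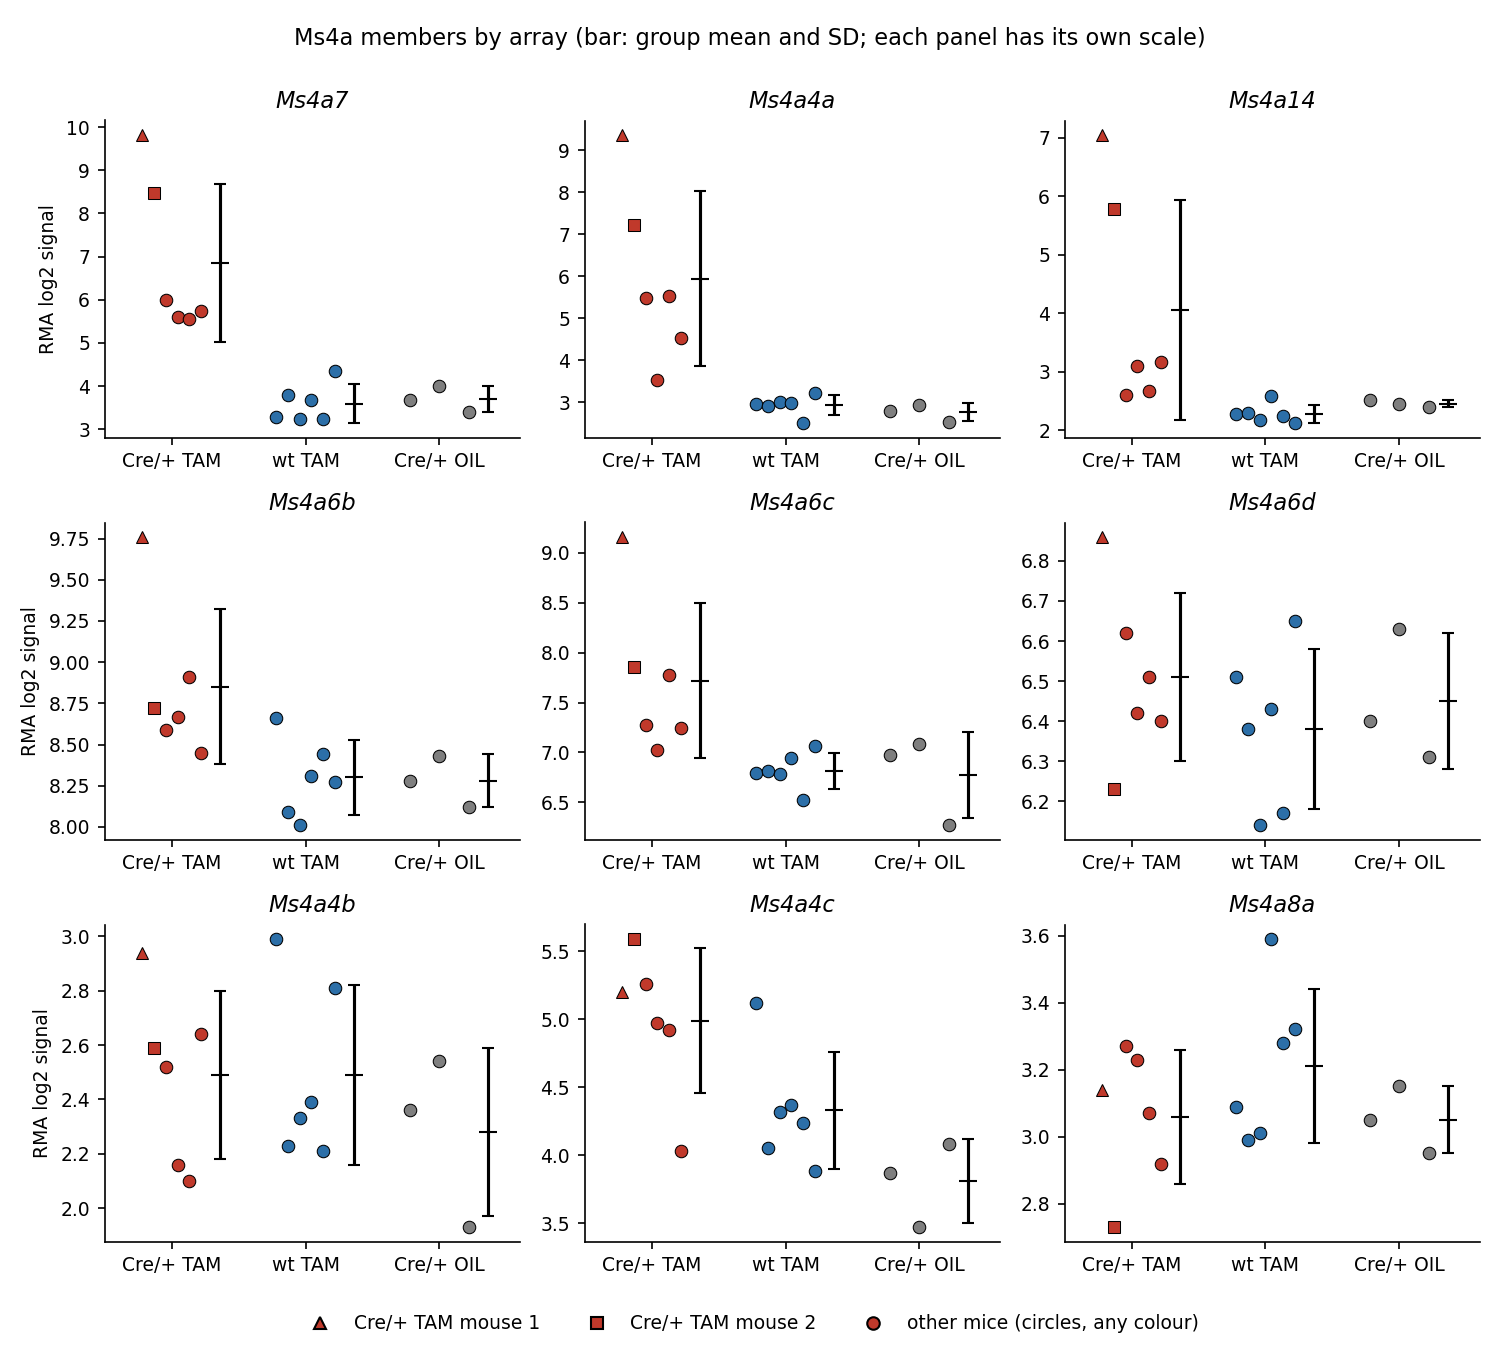
RMA log2 signal of the 9 members on each of the 15 arrays, in Cre/+ TAM, wt TAM and Cre/+ OIL from left to right, each panel on its own scale, with the group mean and SD as a black bar and Cre/+ TAM mice 1 and 2 as a triangle and a square. In Ms4a7, Ms4a4a and Ms4a14 all 6 Cre/+ TAM points lie above the 9 control points, and Ms4a6d, Ms4a4b and Ms4a8a show overlapping groups.

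Ms4a6c and Ms4a6b, the pair with the shared promoter run, were higher on average in Cre/+ TAM with groups that overlapped with wt TAM. The Ms4a6c signal was 9.16 in mouse 1, 7.86 in mouse 2, 7.27 in mouse 3, 7.02 in mouse 4, 7.78 in mouse 5 and 7.24 in mouse 6 in Cre/+ TAM. The wt TAM mice ran between 6.52 and 7.06 with a median of 6.80, and the Cre/+ OIL signals were 6.97, 7.08 and 6.27. Cre/+ TAM mouse 4 lay below the highest mouse of either control group, and the other 5 Cre/+ TAM mice lay above both. The log2 difference of Ms4a6c was 0.91 ± 0.27 (SE) to wt TAM and 0.95 ± 0.33 (SE) to Cre/+ OIL, and without Cre/+ TAM mice 1 and 2 it was 0.51 and 0.56. The Ms4a6b signal was 9.76, 8.72, 8.59, 8.67, 8.91 and 8.45 in Cre/+ TAM in mice 1 to 6. It ran between 8.01 and 8.66 in wt TAM with a median of 8.29, and was 8.28, 8.43 and 8.12 in Cre/+ OIL. All 6 Cre/+ TAM mice lay above the Cre/+ OIL mice, while Cre/+ TAM mice 3 and 6 lay below wt TAM mouse 1. The log2 difference of Ms4a6b was 0.55 ± 0.18 (SE) to wt TAM and 0.57 ± 0.22 (SE) to Cre/+ OIL, and without the 2 mice 0.36 and 0.38.

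Ms4a4c was higher on average in Cre/+ TAM, with a range that overlapped with both control groups. Its Cre/+ TAM signals were 5.20 in mouse 1, 5.59 in mouse 2, 5.26 in mouse 3, 4.97 in mouse 4, 4.92 in mouse 5 and 4.03 in mouse 6. The wt TAM signals were 5.12 in mouse 1, 4.05 in mouse 2, 4.32 in mouse 3, 4.37 in mouse 4, 4.24 in mouse 5 and 3.88 in mouse 6, and the Cre/+ OIL signals were 3.87, 3.47 and 4.08. Here Cre/+ TAM mouse 2 and not mouse 1 was the highest, Cre/+ TAM mouse 6 fell among the controls, and wt TAM mouse 1, one of the arrays marked neg, reached the Cre/+ TAM range. The log2 difference was 0.66 ± 0.23 (SE) to wt TAM and 1.19 ± 0.28 (SE) to Cre/+ OIL. Without the 3 arrays marked neg these values were 0.82 and 0.91, and without Cre/+ TAM mice 1 and 2 they were 0.46 and 0.99. Ms4a4b, the T cell member that shares a promoter run with it, showed no such pattern. Ms4a4b ran between 2.10 and 2.94 in Cre/+ TAM, between 2.21 and 2.99 in wt TAM and between 1.93 and 2.54 in Cre/+ OIL, with a log2 difference to wt TAM of 0.00.

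The other 2 members had overlapping groups as well. Ms4a6d, a macrophage member, ran between 6.23 and 6.86 in Cre/+ TAM, between 6.14 and 6.65 in wt TAM and between 6.31 and 6.63 in Cre/+ OIL. Its log2 difference to wt TAM was 0.13. Ms4a8a, named from alternatively activated macrophages, ran between 2.73 and 3.27 in Cre/+ TAM, between 2.99 and 3.59 in wt TAM and between 2.95 and 3.15 in Cre/+ OIL. Its log2 difference to wt TAM was -0.16.

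Over the 9 members, the median log2 difference between Cre/+ TAM and wt TAM was 0.66, beside -0.02 over all clusters, and 7 members had a positive value. Without Cre/+ TAM mice 1 and 2 the median was 0.46. A log2 difference of at least 1 was reached by 3 members, and by 0.203% of all clusters. The 6 Cre/+ TAM mice all lay above the 6 wt TAM mice in 3 members (0.317% of clusters) and above all 9 control mice in the same 3 (0.176% of clusters). With limma over all clusters, 0 of the 9 passed an adjusted p of 0.05, a threshold that 0.0246% of clusters passed. At an unadjusted p under 0.05, 6 members were higher in Cre/+ TAM, beside 2.92% of clusters. With the unpaired test of the methods 6 members reached that level and 0 passed after adjustment. The share of all clusters at that level in the unpaired test was not computed. This comparison chose the members, so nothing is read from these counts.

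Against Cre/+ OIL the same 6 Cre/+ TAM arrays enter, so the comparison adds a control group and no further mutant mice. The median log2 difference of the members was 0.95, beside 0.00 over all clusters, and all 9 values were above 0. Without Cre/+ TAM mice 1 and 2 the median was 0.44. A log2 difference of at least 1 was reached by Ms4a7, Ms4a4a, Ms4a14 and Ms4a4c (0.283% of clusters). All Cre/+ TAM mice lay above all Cre/+ OIL mice in Ms4a7, Ms4a4a, Ms4a14 and Ms4a6b (1.44% of clusters). With limma, 0 members and 0% of clusters passed an adjusted p of 0.05. At an unadjusted p under 0.05, 6 members were higher (2.93% of clusters). With the unpaired test of the methods 3 members reached that level and 0 passed after adjustment. The share of all clusters was not computed for the unpaired test here either, so nothing is read from its count.

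The comparison of wt TAM with Cre/+ OIL holds no Cre/+ TAM array, though its wt TAM arrays also served in the choice of members. The groups differ in the Cre allele and in the injected agent at once, so the effects of allele and agent cannot be told apart and could offset each other. All Cre/+ OIL mice lie in the lower range of animal numbers, which they share with wt TAM mice 1 to 3 only. Within that range the means in wt TAM and Cre/+ OIL were 3.43 and 3.70 for Ms4a7 and 2.96 and 2.76 for Ms4a4a. For Ms4a4c they were 4.49 and 3.81. These differences within the range were not tested. With all arrays the largest difference was that of Ms4a4c, at 0.52 ± 0.28 (SE, limma adjusted p = 0.933, 95% confidence interval -0.08 to 1.12). Without the arrays marked neg it was 0.09, and Ms4a6c had the largest at 0.55. With the range of animal numbers as a term Ms4a4c had 0.75 and Ms4a4a the largest at 1.02. That term is shared by all groups, so the Cre/+ TAM arrays enter these values. Ms4a4a averaged 8.29 in the lower and 4.76 in the higher range in Cre/+ TAM, and 2.96 and 2.91 in wt TAM. The 1.02 is therefore not read as a difference between the control groups. Without that term and with all arrays, the 8 members other than Ms4a4c had log2 differences between -0.17 (Ms4a14) and 0.21 (Ms4a4b). The median over the 9 was 0.04 beside 0.01 over all clusters. With limma, 0 members and 0% of clusters passed after adjustment, and at an unadjusted p under 0.05 no member was higher, beside 2.98% of clusters. No member reached that level with the unpaired test of the methods, for which the share of all clusters was not computed. For the 3 members with a wide spread in Cre/+ TAM the intervals were broad, reaching from -1.64 to 1.43 for Ms4a7, because the fit shares 1 spread over all groups. In the Cre/+ OIL group mouse 3 had the lowest signal of 8 of the 9 members and mouse 2 the highest of 7.

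**Figure D2:**
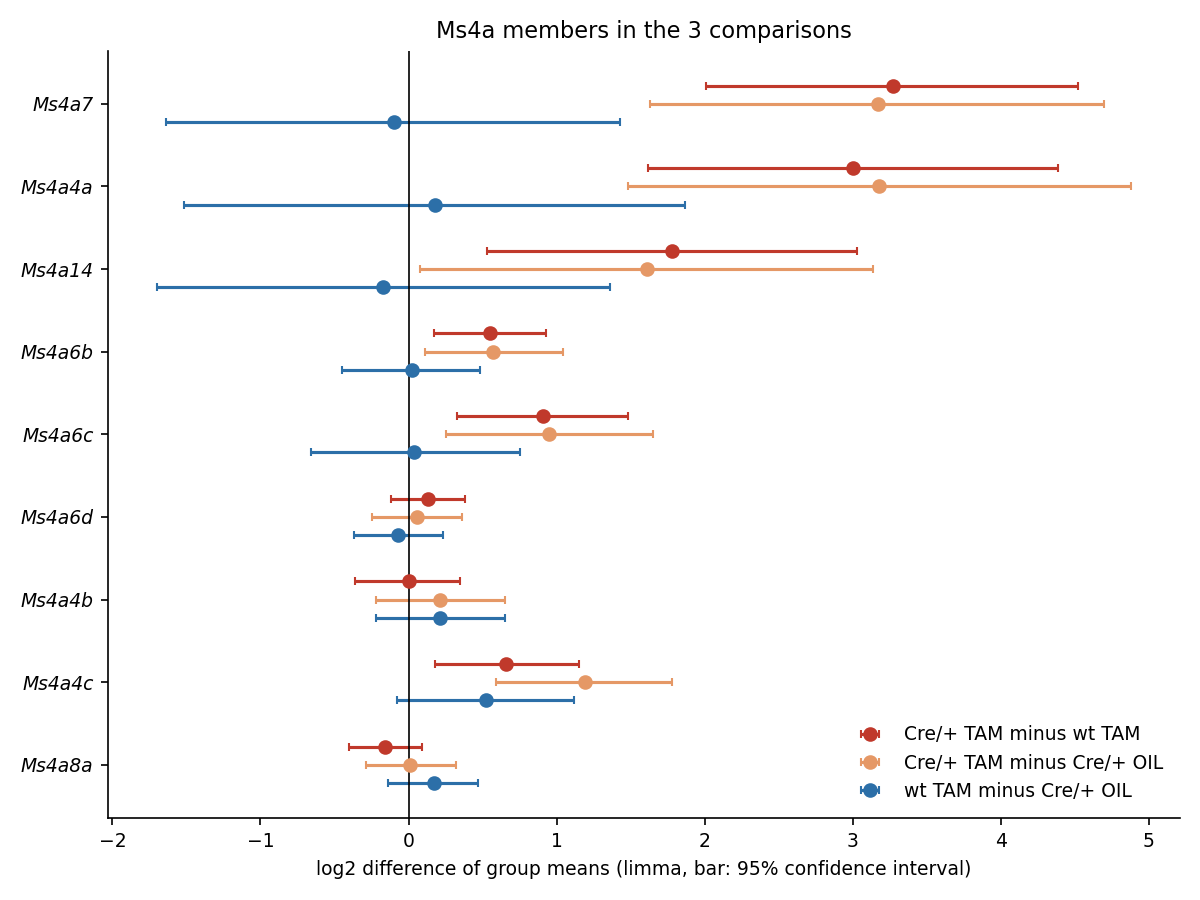
Difference of group means on the log2 scale (x axis) for the 9 members (y axis) in Cre/+ TAM minus wt TAM, Cre/+ TAM minus Cre/+ OIL and wt TAM minus Cre/+ OIL, with points for the limma estimate and bars for the 95% confidence interval. Against both controls Ms4a7 and Ms4a4a sit near 3, Ms4a14 between 1.5 and 2, and every interval of wt TAM minus Cre/+ OIL includes 0.

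The spread among Cre/+ TAM mice followed a common order in part of the family. Cre/+ TAM mouse 1 had the highest signal of 7 of the 9 members, and Cre/+ TAM mouse 2 the second highest of Ms4a7, Ms4a4a, Ms4a14 and Ms4a6c. The mean over the 9 members was 7.03 in mouse 1 and 6.13 in mouse 2, against 4.97 to 5.29 in the other 4 Cre/+ TAM mice, 4.32 to 4.63 in wt TAM and 4.22 to 4.52 in Cre/+ OIL. Both mice lie in the lower range of animal numbers and the other 4 Cre/+ TAM mice in the higher one. Within the lower range, 2 Cre/+ TAM against 3 wt TAM mice, the log2 difference was 5.72 for Ms4a7, 5.33 for Ms4a4a, 4.17 for Ms4a14, 1.72 for Ms4a6c, 0.99 for Ms4a6b and 0.90 for Ms4a4c. Within the higher range, 4 Cre/+ TAM against 3 wt TAM mice, the values were 1.96 for Ms4a7, 1.85 for Ms4a4a, 0.57 for Ms4a14, 0.49 for Ms4a6c, 0.31 for Ms4a6b and 0.63 for Ms4a4c. All 6 were positive in both ranges and larger in the lower one, and the difference between the ranges was not tested.

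For Ms4a7, Ms4a4a and Ms4a14 the lack of overlap with wt TAM within each range follows from that over all mice. Ms4a6b also had no overlap within either range. The share of all clusters without overlap in groups this small was not computed, so nothing is read from it. Without Cre/+ TAM mice 1 and 2 the log2 difference to wt TAM was 2.13 for Ms4a7 and 1.83 for Ms4a4a. These mice had the highest signals of both genes, so leaving them out could not create an overlap. The count of members passing an adjusted p of 0.05 depended on these 2 mice. It was 0 of 9 with all arrays, 1 (Ms4a7, beside 0.0462% of clusters) when Cre/+ TAM mouse 1 was left out and 2 (Ms4a7 and Ms4a4a, beside 0.0493% of clusters) when Cre/+ TAM mice 1 and 2 were both left out. It was also 2 (0.157% of clusters) with the range of animal numbers as a term in the fit. It was 3 (Ms4a7, Ms4a4a and Ms4a14, beside 0.268% of clusters) in the lower range alone and 0 (0.00924% of clusters) in the higher range alone. Against Cre/+ OIL the counts were 1 without Cre/+ TAM mice 1 and 2 (0.00924% of clusters), 2 with the range as a term (0.0647%) and 3 in the lower range (0.259%). Since the members were selected on these arrays, the counts describe the spread and support nothing.

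**Figure D3:**
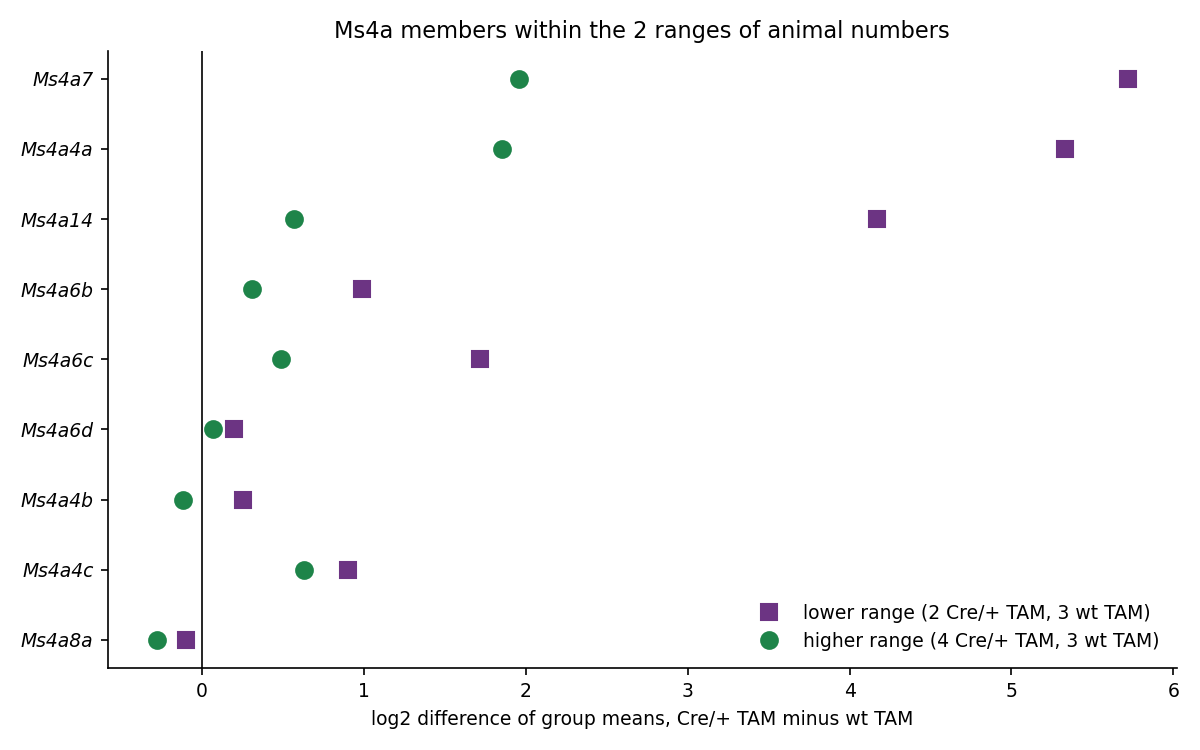
Difference of group means on the log2 scale, Cre/+ TAM minus wt TAM (x axis), for each member (y axis) within the lower range (squares, 2 against 3 mice) and within the higher range (circles, 4 against 3 mice). Ms4a7, Ms4a4a and Ms4a14 lie above 4 in the lower range and at 2 or below in the higher one.

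Across the 15 arrays Ms4a7 and Ms4a4a ran together (Pearson r = 0.97, Spearman rho = 0.82), and Ms4a6c ran with Ms4a4a (r = 0.95, rho = 0.86) more closely than with Ms4a6b (r = 0.89, rho = 0.70). With the group means removed these values of r were 0.92, 0.91 and 0.80, and over the 13 arrays without Cre/+ TAM mice 1 and 2 they were 0.88, 0.84 and 0.65. Ms4a4c and Ms4a4b, the other pair with a shared promoter run, had r = 0.24 (rho = 0.13), and 0.03 without the 2 mice. Ms4a8a had r between -0.30 and 0.32 with the other members. The arrays share groups and scaling, so these values only describe the arrays.

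The genes whose signals were most like that of Ms4a7 over the 15 arrays were Axl, Vcam1, Pf4, Cybb and Aoah (Pearson r of 0.975, 0.973, 0.972, 0.961 and 0.959). Axl encodes a receptor for dying cells, Vcam1 an adhesion molecule, Pf4 a platelet and macrophage chemokine, Cybb the catalytic subunit of the phagocyte oxidase and Aoah an enzyme that detoxifies lipopolysaccharide. Without Cre/+ TAM mice 1 and 2, over 13 arrays, their values of r were 0.920, 0.920, 0.883, 0.832 and 0.872. For Ms4a4a the list was Aoah, Mrc1, Axl, Pf4 and Vcam1, with r between 0.962 and 0.971, and between 0.832 and 0.901 without the 2 mice. Mrc1 encodes the mannose receptor. For Ms4a14 it was Mmp13, a collagenase, the interferon-inducible Ifi203 and Mndal, AI607873, and the endocytic adaptor Dab2, with r between 0.969 and 0.982. Without the 2 mice r was 0.461, 0.688, 0.345, 0.538 and 0.423 for Mmp13, Ifi203, Mndal, AI607873 and Dab2.

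The family extends beyond the 9 members. Of 17 other family genes listed, 14 were measured, 12 Ms4a genes and the distant relatives Tmem176a and Tmem176b, and 0 passed an adjusted p of 0.05 in any of the 3 comparisons (limma, 0 also at an unadjusted p under 0.05, 0 with the adjusted unpaired test). After adjustment 0 of the 9 members and 0.0246% of clusters passed against wt TAM, so the adjusted count does not set these genes apart from the members. Their log2 differences between Cre/+ TAM and wt TAM ran from -0.17 to 0.19 with a median of -0.01. Ms4a4d, which lies between Ms4a6b and Ms4a6d, had the highest at 0.19 ± 0.14 (SE, adjusted p = 0.923), with signals of 3.87 ± 0.27 in Cre/+ TAM and 3.69 ± 0.29 in wt TAM (SD, n = 6 each). Ms4a1, the gene of CD20, had the lowest at -0.17 ± 0.11 (SE, adjusted p = 0.906), with signals of 2.52 ± 0.14 in Cre/+ TAM and 2.69 ± 0.26 in wt TAM (SD, n = 6 each).

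Along chromosome 19 the 3 members with the largest differences to wt TAM stood side by side. In the order of the chromosome the log2 differences to wt TAM were -0.16 for Ms4a8a, 1.78 for Ms4a14, 3.27 for Ms4a7, 3.00 for Ms4a4a, 0.66 for Ms4a4c, 0.00 for Ms4a4b, 0.91 for Ms4a6c, 0.55 for Ms4a6b and 0.13 for Ms4a6d. Ms4a14 and Ms4a7 are read from the minus strand and Ms4a4a from the plus strand. Between Ms4a8a and Ms4a14 lie 7 named genes (Ms4a20, Ms4a19, Ms4a13, 4930526L06Rik, Ms4a12, Ms4a1 and Ms4a5) with values from -0.17 to 0.23. The other 4 named genes between members had 0.50 for BE692007, 0.46 for Gm8369, 0.19 for Ms4a4d and 0.09 for Gm10212. Of these 11 genes 0 passed after adjustment (limma, beside 0.0246% of clusters). At an unadjusted p under 0.05 it was also 0, beside 1894 of 32471 clusters in both directions. For so few genes these counts do not show that they were unchanged. BE692007 lies over Ms4a6c on the other strand (adjusted p = 0.864), and whether the pair shares signal was not tested.

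**Figure D4:**
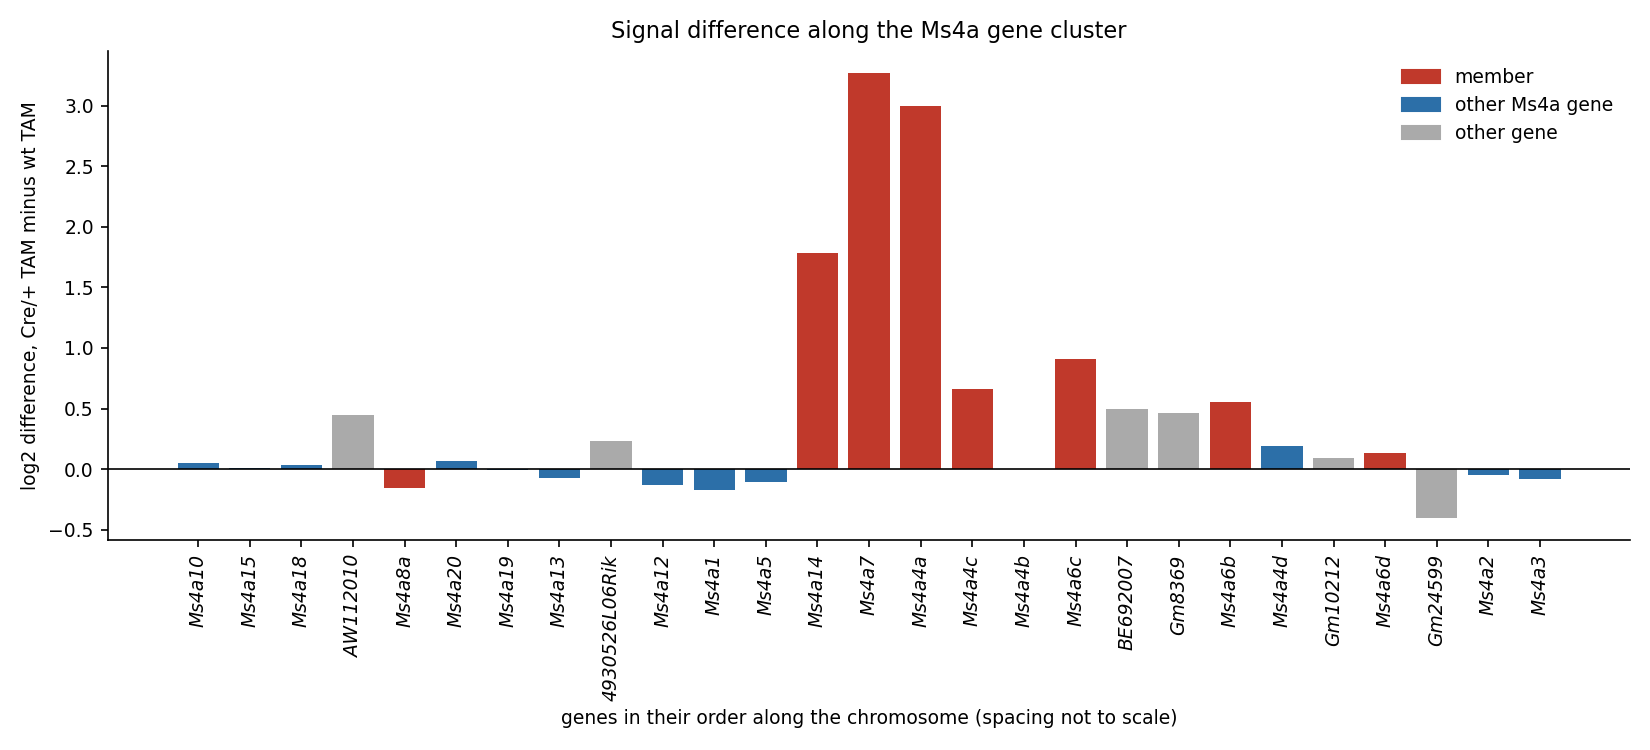
Log2 difference, Cre/+ TAM minus wt TAM (y axis), of the 27 named genes of the Ms4a cluster in their order along the chromosome (x axis, spacing not to scale), with members in red, other Ms4a genes in blue and other genes in grey. The 3 tallest bars, Ms4a14, Ms4a7 and Ms4a4a, are neighbours, and the 12 other Ms4a genes lie between -0.17 and 0.19.

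Genes whose products meet Ms4a proteins or act in the same receptor pathways were listed as partners. Of 13 measured, 0 passed after adjustment against wt TAM (limma, 4 higher at an unadjusted p under 0.05, beside 2.92% of clusters, 0 with the adjusted unpaired test). Without Cre/+ TAM mice 1 and 2, 3 were higher at that level, beside 2.23% of clusters. The largest value was that of Clec7a, the gene of dectin-1, with 5.96 ± 0.71 in Cre/+ TAM and 5.00 ± 0.40 in wt TAM (SD, n = 6 each), a log2 difference of 0.95 ± 0.27 (SE, adjusted p = 0.447), and 0.74 without the 2 mice. The next was Cd9, a tetraspanin, at 0.49 ± 0.16 (SE, adjusted p = 0.576). The microglial receptor Trem2 had a log2 signal of 8.94 ± 0.20 in Cre/+ TAM and 9.03 ± 0.19 in wt TAM (SD, n = 6 each), a log2 difference of -0.08 ± 0.11 (SE, adjusted p = 0.958).

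Some markers of border-associated macrophages were high in the mice in which the 3 leading members were high. The mean over the 16 markers, none of them an Ms4a gene, was 6.72 in mouse 1, 5.62 in mouse 2 and 5.04 to 5.18 in the other 4 Cre/+ TAM mice, against 4.78 to 4.94 in wt TAM and 4.67 to 4.80 in Cre/+ OIL. Mice 1 and 2 were also the highest for Ms4a7, Ms4a4a and Ms4a14. Pf4 averaged 7.27 ± 1.67 in Cre/+ TAM and 4.50 ± 0.43 in wt TAM (SD, n = 6 each), a log2 difference of 2.77 ± 0.55 (SE, adjusted p = 0.12), and without Cre/+ TAM mice 1 and 2 the difference was 1.74 ± 0.19 (SE, limma adjusted p = 0.00108). For Mrc1 the values were 7.28 ± 1.70 in Cre/+ TAM and 5.36 ± 0.24 in wt TAM (SD, n = 6 each), with a log2 difference of 1.91 ± 0.55 (SE, adjusted p = 0.466), and 0.91 without the 2 mice. Lyve1, another defining marker, had 4.75 ± 0.20 in Cre/+ TAM and 4.76 ± 0.23 in wt TAM (SD, n = 6 each). Its log2 difference of -0.01 was the lowest of the 16. Dab2 had 1.20, Ccl24 0.97, F13a1 0.68 and Cd163 0.62, and without the 2 mice 0.32, 0.52, 0.27 and 0.04. Maf had 0.10 and Colec12 0.00 with all mice. The median difference over the 16 markers was 0.40, and 0.15 without the 2 mice. Of the 16 markers 0 passed against wt TAM (limma, 4 higher at an unadjusted p under 0.05, beside 2.92% of clusters, 0 with the adjusted unpaired test). Without the 2 mice 1 passed (Pf4) and 5 were higher at an unadjusted p under 0.05, beside 2.23% of clusters. The part of such cells in the Ms4a signals was not tested.

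**Figure D5:**
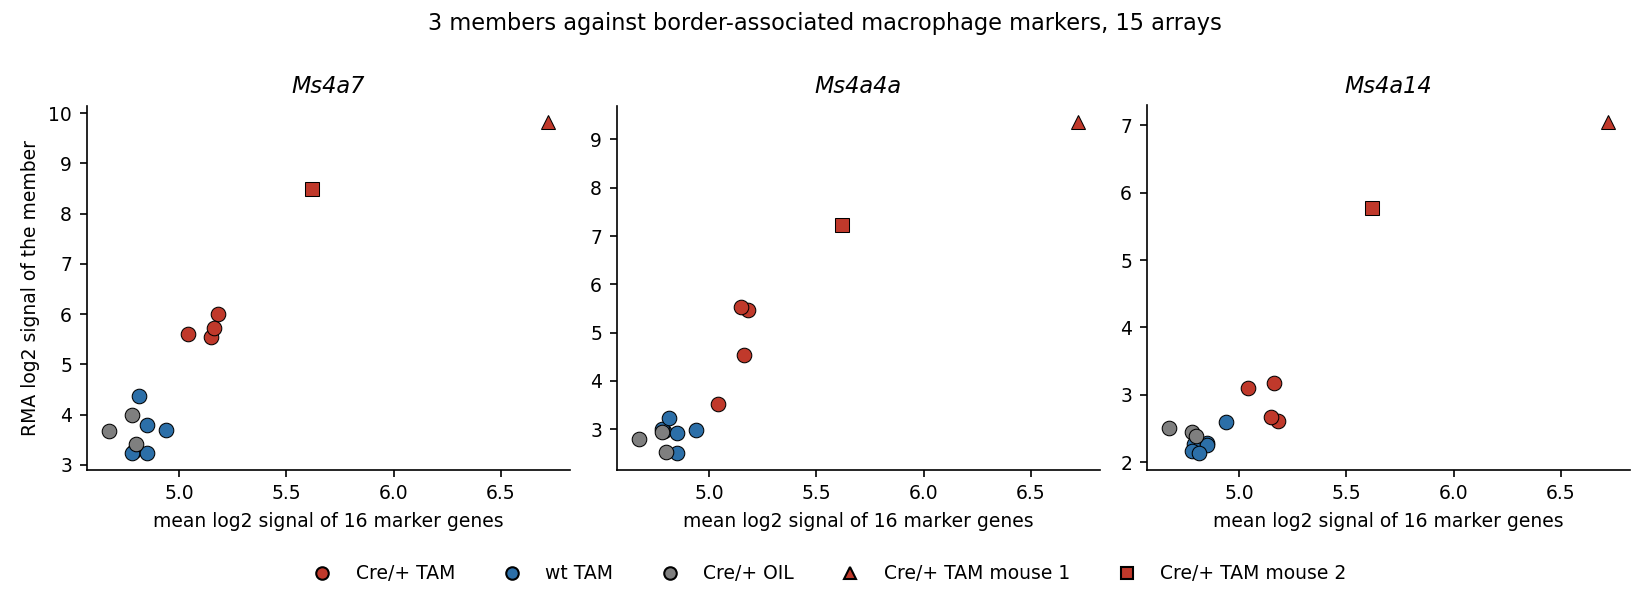
RMA log2 signal of Ms4a7, Ms4a4a and Ms4a14 (y axes) against the mean log2 signal of the 16 border-associated macrophage markers (x axis), 1 point per array for the 15 arrays. Cre/+ TAM mice 1 (triangle) and 2 (square) are highest on both axes, and the other 4 Cre/+ TAM mice lie above all 9 controls on both.

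Interferon-stimulated genes, which cells turn on in answer to interferon, were also highest in Cre/+ TAM mice 1 and 2 by their mean. The mean over 15 such genes was 6.31 in mouse 1, 5.73 in mouse 2 and 5.27 to 5.32 in the other 4 Cre/+ TAM mice, against 4.93 to 5.19 in wt TAM and 4.88 to 5.27 in Cre/+ OIL. Oas2, an RNA sensor, had the largest log2 difference to wt TAM at 1.54 ± 0.41 (SE, adjusted p = 0.361), followed by its relative Oasl2 at 1.07 ± 0.32 (SE, adjusted p = 0.494). Of the 15 genes 0 passed after adjustment (limma, 8 higher at an unadjusted p under 0.05, beside 2.92% of clusters, 0 with the adjusted unpaired test). Without Cre/+ TAM mice 1 and 2 the difference was 0.80 for Oas2 and 0.51 for Oasl2, and 5 of the 15 were higher at that level, beside 2.23% of clusters. Their part in the Ms4a signals was not tested.

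Markers of other cell types are given beside the members. The mean over 10 monocyte markers was 3.89 to 4.05 in Cre/+ TAM, 3.74 to 4.07 in wt TAM and 3.87 to 4.40 in Cre/+ OIL, with log2 differences to wt TAM of 0.83 for Itga4 and -0.51 for Chil3. The mean over the 11 measured T and NK cell markers was 3.54 to 3.77 in Cre/+ TAM, 3.55 to 3.94 in wt TAM and 3.57 to 3.66 in Cre/+ OIL. That over 8 B cell markers was 3.82 to 4.01 in Cre/+ TAM, at least 3.94 in wt TAM and 4.06 to 4.14 in Cre/+ OIL. Mast cell markers (6 genes) averaged 2.45 to 2.74 in Cre/+ TAM, 2.50 to 2.74 in wt TAM and 2.42 to 2.63 in Cre/+ OIL. Dendritic cell markers (7 genes) averaged 4.14 to 4.31 in Cre/+ TAM, 4.03 to 4.44 in wt TAM and 4.10 to 4.31 in Cre/+ OIL. In each of these 5 lists the Cre/+ TAM range overlapped the wt TAM range. The largest log2 differences to wt TAM were -0.36 for Cd8a and 0.12 for Ncr1 among T and NK cell markers, -0.32 for Cd79a among B cell markers, and -0.25 for Tpsb2 and -0.22 for Kit among mast cell markers. Among dendritic cell markers they were -0.17 for Itgae and -0.14 for Ccr7, and among neutrophil markers -1.46 for S100a8 and -1.22 for S100a9. None of the genes of these 6 lists passed after adjustment (limma, beside 0.0246% of clusters, 0 with the adjusted unpaired test). At an unadjusted p under 0.05, 1 monocyte marker was higher and 1 T and NK cell and 1 mast cell marker lower. At that level 1894 of 32471 clusters passed in both directions. Cx3cr1, the gene that holds the Cre insertion, had the largest difference among the 12 microglia markers, 11.21 ± 0.26 in Cre/+ TAM and 11.64 ± 0.17 in wt TAM (SD, n = 6 each), a log2 difference of -0.43 ± 0.12 (SE, adjusted p = 0.447). The next was Olfml3 at 0.30.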

How the data were processed

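The authors amplified RNA of sorted microglia, hybridised each sample to 1 Affymetrix Mouse Gene 2.0 ST array and deposited log2 signals normalised by RMA, which corrects background, aligns arrays by quantiles and summarises probes. The RMA software, its version and the genome build are not stated. Amplification of small RNA amounts and the alignment by quantiles can compress or shift differences. The deposited annotation also holds probe counts and a cross-hybridisation class per cluster (other values, used as labels). The authors' deposited fold changes and p-values were not used. Arrays have no read depth, and their number limits the precision.

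The tests ran over the 32471 of 34390 transcript clusters with a gene symbol, of which 128 carried several symbols and are not named. A second deposited table held 41345 rows, and the 34390 shared ones differed by at most 0.005 on the log2 scale. Each gene was represented by the cluster with the highest mean over the 15 arrays, and each member had 1 cluster. With R 4.3.3 and limma 3.58.1, a mean per group was fitted to all 15 arrays, and 3 contrasts were tested two-sided with Benjamini-Hochberg adjustment over the tested clusters at 0.05. Groups came from the sample labels. Controls were littermates by the labels, but litters are not assigned to mice, so shared litters could not enter the fit, and p-values measure the spread between these samples. Promoter sequences were those of RefSeq on GRCm38.p6.

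The members and gene lists were chosen with earlier results of these data known. The text names all 9 members, the neighbours between them, the 5 genes most alike to each of the 3 members that the study names, and from each list every gene passing the test or, where none passes, up to 2 with the largest difference to wt TAM. The value of 1 gene that this rule names is not reported here. Trem2, Lyve1, Dab2, Ccl24, F13a1, Cd163, Maf, Colec12 and the marker names given as examples were chosen beside that rule after their values were seen. The alternatives tried were quantile normalization, median centring, values of the second table, clusters above the median signal, 1 cluster per gene, a trended and robust fit, only the arrays of the 2 groups, the arrays marked neg left out, each array left out, Cre/+ TAM mice 1 and 2 left out, the range of animal numbers as a term or alone, and the methods' unpaired test. The marker lists and the correlations between members were also computed without Cre/+ TAM mice 1 and 2, a choice made after seeing the data.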

Additional observations from a re-analysis of the deposited data

Results flagged for a closer look

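Dixon's gap test was applied to each member in Cre/+ TAM and in wt TAM (18 groups of 6 mice), and chance alone marks about 1 in 20 groups. It marked 2. In Cre/+ TAM, mouse 1 had an Ms4a6b signal of 9.76, far above the next mouse (gap over range 0.651). In wt TAM, mouse 4 had an Ms4a14 signal of 2.59, the highest of its group (gap over range 0.656). Ms4a7, Ms4a4a and Ms4a14 in Cre/+ TAM were not marked, where mice 1 and 2 are both high.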

How the results depend on the processing

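The number of members passing an adjusted p of 0.05 was 0 in all 3 comparisons, and it changed with the mice in the fit. Against wt TAM it was 2 without Cre/+ TAM mice 1 and 2, 2 with the range of animal numbers as a term and 3 in the lower range, and leaving out 1 array at a time gave 0 to 1, the 1 being Ms4a7 without Cre/+ TAM mouse 1. Against Cre/+ OIL it was 1, 2 and 3 in the same settings. The cause was not tested. The median log2 difference of the members against Cre/+ OIL was 0.95, and it was 1.59 in the lower range and 0.44 without Cre/+ TAM mice 1 and 2. Against wt TAM it was 0.66, and 0.99 and 0.46 in the same settings. The median against Cre/+ OIL was 1.05 without Cre/+ OIL mouse 1, 1.02 without mouse 2 and 0.70 without mouse 3. Over all alternatives the log2 difference to wt TAM stayed above 0 for Ms4a7 (1.96 to 5.72), Ms4a4a (1.83 to 5.33) and Ms4a14 (0.57 to 4.17). It also did for Ms4a6c (0.49 to 1.72), Ms4a6b (0.31 to 0.99), Ms4a4c (0.46 to 0.90) and Ms4a6d (0.06 to 0.20). Ms4a8a stayed below 0 (-0.28 to -0.08), and Ms4a4b ran from -0.14 to 0.25. The alternatives reuse the arrays on which the members were chosen, so a constant sign is a description only. Among all clusters, 8 passed against wt TAM, 16 without Cre/+ TAM mice 1 and 2, 51 with the range of animal numbers as a term, 87 in the lower range, 3 in the higher range, 15 without Cre/+ TAM mouse 1 and 2 without wt TAM mouse 3. Against Cre/+ OIL 0 passed, 3 without Cre/+ TAM mice 1 and 2, 21 with the range as a term and 84 in the lower range. With only clusters above the median signal, 5 of the 9 members were left and the median was not computed. No value exists for the lowest of several clusters of a gene, since each member has 1. No paired analysis was possible because litters are not assigned to mice in the sources used here and no animal number is shared between groups.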
